A study of Rattus norvegicus with 6 samples.

Results

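The genes described here encode membrane proteins and digestive enzymes of the lysosome, leaving aside the cathepsins and the proton pump. They were chosen by symbol from a list of 34 names. The matrix listed 31 of them among its 17648 genes, and SGSH, IDS and TMEM192 were not analysed here. The lysosome is the acidic compartment in which cells break down proteins, lipids and sugar chains that arrive by endocytosis and by autophagy. Its membrane carries heavily glycosylated proteins, LAMP1 and LAMP2 among them, while its hydrolases are made in the endoplasmic reticulum and delivered by sorting receptors. Inherited loss of many of these hydrolases causes storage diseases that damage neurons, and galectin-3, the sugar-binding protein targeted in this study, is known to gather on damaged lysosomes.

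RNA came from spinal cord neuron cultures of neonatal Sprague-Dawley rats, treated with the cytostatic Ara-C and kept for 3 days before injury. The Glu + siR-Con group (3 libraries) had been transfected with a control small interfering RNA and the Glu + siR-GAL3 group (3 libraries) with one against GAL3, the gene listed as LGALS3. The paper's methods and the design text of the series state that both groups were exposed to glutamate, in the model 10 μM for 1 h followed by 16 h without glutamate, whereas the sample labels give saline for the control libraries and call the others a knockout. If the labels were right on saline, glutamate and the siRNA could not be told apart. The paper says of its data in general that they came from independent repeated experiments, but the labels do not say whether these replicates were separate cultures. If they were not, p-values measure only the spread between these libraries, which may be technical.

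The matrix held expression values on a linear scale that the authors derived from FPKM, a fragment count scaled by transcript length and library size, and then corrected. The depth of the libraries is unknown. Exactly equal values joined siR-Con replicate 1 with siR-GAL3 replicate 1 in one library set and siR-Con replicates 2 and 3 with siR-GAL3 replicate 3 in another, while siR-GAL3 replicate 2 stood alone and was the lowest or highest library in 76.7% of the genes tested. LGALS3 itself was 77.4, 54.4 and 62.4 in siR-Con replicates 1 to 3 and -1.64, 32.3 and 18.5 in siR-GAL3 replicates 1 to 3. All siR-GAL3 libraries lay below all siR-Con libraries, although the value below 0 has no meaning as a level and the log2 fold change of -2.91 (limma, unadjusted p = 0.0462, adjusted p = 0.571) was -1.35 without that library. The neuronal label was also set against marker genes. Of 12 neuronal markers 11 were listed, 5 of them with a mean under 1, among them RBFOX3 (NeuN) at 0.300 to 0.429, while MAP2 lay between 13.1 and 19.0. The listed neuronal markers summed to between 32.3 and 39.2 per library, against 751.7 to 1012 for 8 astrocyte markers, 1033 to 1354 for 6 oligodendrocyte markers and 130.3 to 189.4 for 14 microglial markers. The libraries therefore held RNA of glia as well as of neurons, and in bulk RNA a smaller number of cells of one type and less RNA per cell cannot be told apart.

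Most lysosomal genes differed little between the groups. Of the 31 listed genes, 29 reached a mean of 1 across the libraries and were tested with limma on log2(value + 1), a scale that understates fold changes of low genes. Progranulin (GRN) was the gene of the list furthest above the controls after siR-GAL3, by 0.40 on this log2 scale, and LAMP1 was furthest below, at -0.29. No gene of the list reached an adjusted p under 0.05 (Benjamini-Hochberg over the 8495 genes tested), and none did in the whole table, where the percentage called was 0. At an adjusted p under 0.1 there were 7 genes (0.0824%), none of them lysosomal genes of the list. At an unadjusted p under 0.05 there were 4 of 29, or 13.8%, against 8.66% of all genes tested: GRN and CLN3 were higher (4.41% of all genes) and LAMP1 and LIPA lower (4.25% of all genes). None passed an absolute log2 fold change over 1 with an unadjusted p under 0.05, the criteria that the study states for public injury datasets, which 0.318% of all genes passed. Without the log transformation, where the threshold is a difference of 1 unit, LAMP1 and GRN were the 2 that passed, of 367 genes in all. The groups did not overlap in 6 of the 29 (20.7%), against 20.5% of all genes. GRN, CLN3 and FUCA1 were separate and higher (10.3% of all genes), and LAMP1, LIPA and GAA separate and lower (10.3% of all genes). The direction was mixed, with 13 genes higher and 16 lower (10 and 19 after median-ratio scaling of the libraries, 16 and 13 without siR-GAL3 replicate 2), and the median log2 fold change was -0.03 (quartiles -0.06 and 0.05), against a median of -1.2e-05 (quartiles -0.10 and 0.10) over all genes.

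**Figure D1:**
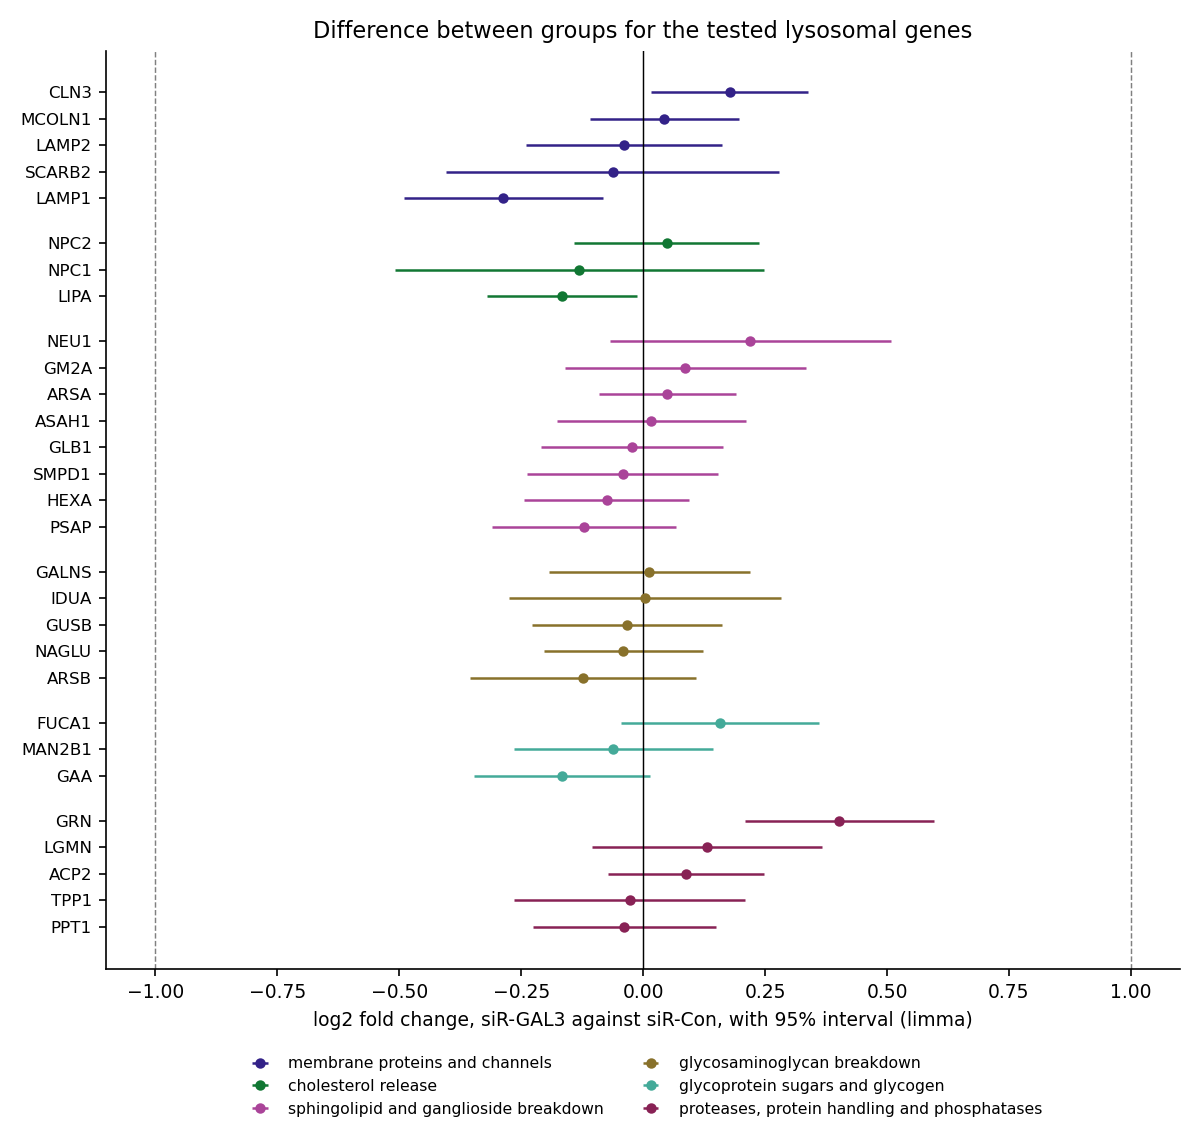
Log2 fold change of siR-GAL3 against siR-Con (horizontal axis, log2(value + 1) scale) for the 29 tested genes grouped by role, as points with 95% confidence intervals from limma. GRN at 0.40 stands furthest right and LAMP1 at -0.29 furthest left, and every interval lies between -0.51 and 0.60.

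The intervals bound what the libraries could have hidden. The 95% interval of every one of the 29 genes lay between -0.51 and 0.60, so none of them included a doubling or a halving on this scale. Standard errors ran from 0.06 to 0.16 and were under 0.1 for 24 genes. The fold change was within 0.1 of 0 for 18 genes, and 26 of the 29 were within 0.2, as were 6861 of the 8495 genes tested. These intervals rest on values that the authors had already corrected within groups.

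LAMP1, one of the most abundant glycoproteins of the lysosomal membrane, was the highest gene of the list and ranked 24 of all 17648 genes by mean value. It was 207.5, 180.8 and 180.8 in siR-Con replicates 1 to 3 and 157.1, 145.6 and 162.8 in siR-GAL3 replicates 1 to 3. The siR-GAL3 libraries were all below the controls, and replicates 2 and 3 of siR-Con had identical values, the only such tie in the list. The means were 189.7 ± 15.4 and 155.2 ± 8.76 (SD, n = 3 each), and its log2 fold change was -0.29 (standard error 0.09, 95% interval -0.49 to -0.08, limma unadjusted p = 0.0127, adjusted p = 0.415). LAMP1 was lower after siR-GAL3 in both library sets that held both groups, by log2 differences of -0.40 in the first and -0.15 in the second, and its log2 fold change lay between -0.32 and -0.22 when single libraries were omitted. Most of the 8 astrocyte markers differed the same way, with 6 lower and 3 of these at an unadjusted p under 0.05 (4.25% of all genes). The groups did not overlap in 2 of the 8, GFAP and ALDH1L1, both lower (10.3% of all genes). The summed level of the 8 was 869.8 to 1012 in the controls and 751.7 to 813.2 after siR-GAL3. GFAP made up most of it, at 571.1 to 757.7 in the controls and 514.8 to 533.4 after siR-GAL3. A sum without GFAP was not taken, and AQP4, the next highest, overlapped between the groups. In the list of fibroblast and endothelial markers the 4 tested were all fibroblast markers (COL1A1, COL3A1, DCN and LUM). Of these, 3 were lower and 2 of the lower had an unadjusted p under 0.05 (4.25% of all genes). The median log2 fold change of the 4 was -0.45. Groups were separate in 2 of the 4, COL1A1 and COL3A1, both lower (10.3% of all genes). CDH5, the only endothelial marker listed, was too low to be tested, with means of 0.888 in the controls and 0.868 after siR-GAL3. The 5 listed summed to 42.5 to 49.5 in the controls and to 32.8 to 37.7 after siR-GAL3. No marker of either list was at 0, and their part in the LAMP1 difference was not tested.

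The LAMP1 promoter is printed because it held the most copies of the E-box core in the list. This 6-letter motif, CACGTG, is the centre of the site bound by TFEB, the transcription factor of lysosomal genes. The sequence below runs 5′ to 3′ over the 250 bases before the start of the gene on the minus strand, chr16:83075064-83075313 of rat assembly GRCr8 (RefSeq), and capitals mark the core.
LAMP1 promoter: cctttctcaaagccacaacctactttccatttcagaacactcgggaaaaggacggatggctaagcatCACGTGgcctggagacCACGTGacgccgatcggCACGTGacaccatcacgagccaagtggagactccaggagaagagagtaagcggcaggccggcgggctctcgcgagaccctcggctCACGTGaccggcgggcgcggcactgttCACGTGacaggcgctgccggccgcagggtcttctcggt

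LAMP2, SCARB2 and MCOLN1 had fold changes closer to 0. The gene LAMP2 also encodes the receptor of chaperone-mediated autophagy, but values were per gene, so forms of its transcript were not told apart. LAMP2 was 31.1, 37.5 and 34.95 in siR-Con replicates 1 to 3 and 34.4, 32.6 and 33.4 in siR-GAL3 replicates 1 to 3. The groups overlapped, and its log2 fold change was -0.04 (95% interval -0.24 to 0.16, limma unadjusted p = 0.657). The ratio of LAMP1 to LAMP2 was 6.68, 4.82 and 5.17 in the controls and 4.56, 4.47 and 4.88 after siR-GAL3, which overlapped as well (exact permutation test, two-sided p = 0.2). SCARB2, the receptor that carries glucocerebrosidase to the lysosome, was 14.3 in siR-GAL3 replicate 2 and between 17.4 and 21.2 in the other libraries. Its log2 fold change was -0.06 over all libraries and 0.10 without siR-GAL3 replicate 2, so its sign rested on that library. The calcium channel MCOLN1 (mucolipin 1) had means of 3.16 ± 0.176 and 3.28 ± 0.0846 (SD, n = 3 each), which overlapped.

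CLN3, the membrane protein lost in juvenile Batten disease, was low throughout. It was 1.09, 0.930 and 1.13 in siR-Con replicates 1 to 3 and 1.21, 1.42 and 1.32 in siR-GAL3 replicates 1 to 3. All siR-GAL3 libraries were above all controls, with means of 1.05 ± 0.106 and 1.32 ± 0.109 (SD, n = 3 each), 25.5% higher after siR-GAL3. On the log2(value + 1) scale, which compresses a gene this low, the fold change was 0.18 (standard error 0.07, 95% interval 0.02 to 0.34, limma unadjusted p = 0.0347, adjusted p = 0.535), and a block for the library set gave 0.15 (limma unadjusted p = 0.0713). A pseudocount of 0.1 gave 0.30. The 120 bases before its start, on the minus strand at chr1:190597930-190598049 (GRCr8, RefSeq), are shown because this gene differed the other way from LAMP1 and also held the core, here in capitals in 2 copies.
CLN3 promoter: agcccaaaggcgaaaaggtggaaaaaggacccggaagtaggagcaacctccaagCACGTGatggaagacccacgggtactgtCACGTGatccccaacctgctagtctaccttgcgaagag

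**Figure D2:**
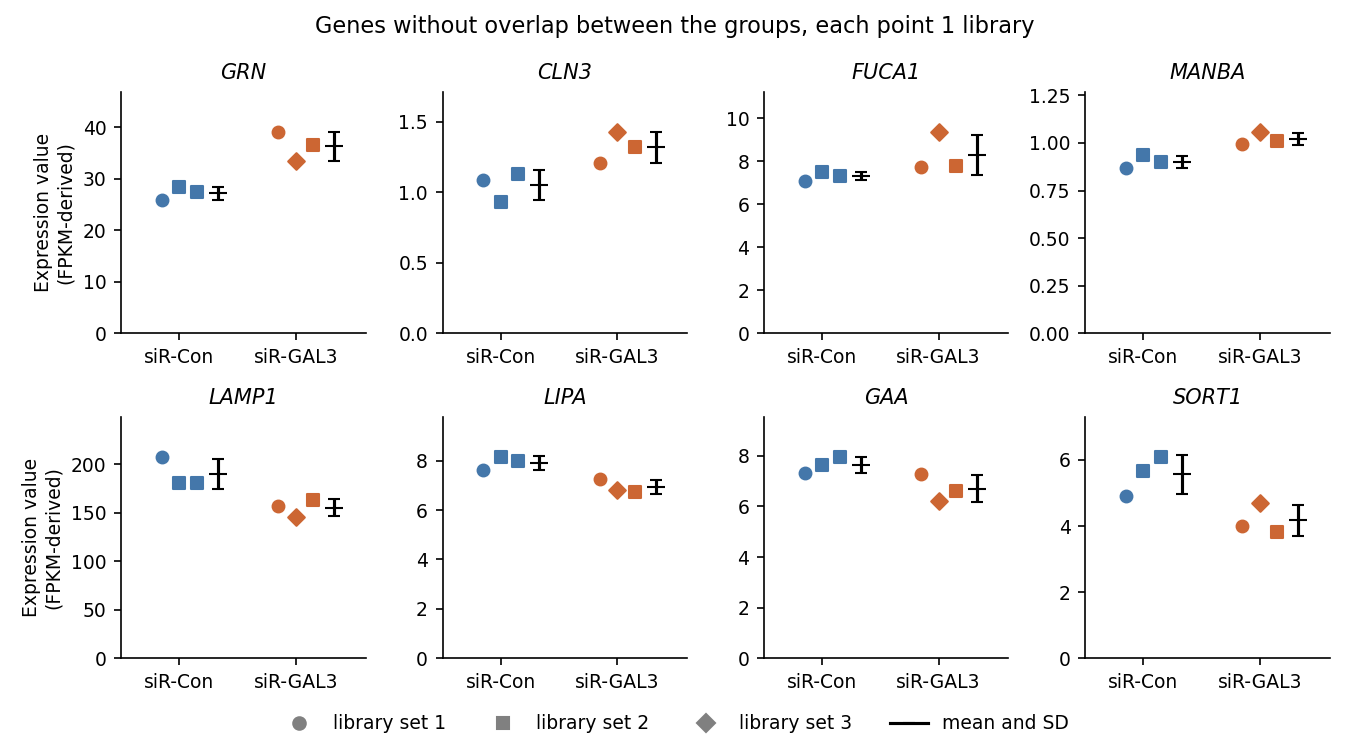
Expression value (vertical axis, linear scale of the deposited matrix) in each of the 3 siR-Con and 3 siR-GAL3 libraries for the genes of the list whose groups did not overlap and for the sorting receptor SORT1, with symbols by library set and bars for the mean and SD. GRN and CLN3 sit higher and LAMP1 and LIPA lower in all siR-GAL3 libraries.

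Cholesterol leaves the lysosome after acid lipase has cut cholesteryl esters and the Niemann-Pick proteins have passed the sterol to the membrane. The lipase gene LIPA was 7.61, 8.15 and 7.99 in siR-Con replicates 1 to 3 and 7.26, 6.83 and 6.74 in siR-GAL3 replicates 1 to 3. All siR-GAL3 values were below all control values, though siR-GAL3 replicate 1 came near the control of its own library set. The means were 7.92 ± 0.279 and 6.95 ± 0.277 (SD, n = 3 each), and its log2 fold change was -0.17 (standard error 0.07, 95% interval -0.32 to -0.01, limma unadjusted p = 0.0382, adjusted p = 0.542). NPC2, the soluble sterol carrier, was 16.5, 18.1 and 18.4 in the controls and 18.5, 19.4 and 17.0 after siR-GAL3. Its groups overlapped (log2 fold change 0.05, limma unadjusted p = 0.566). NPC1, its membrane partner, was 4.21 in siR-GAL3 replicate 2 and between 6.16 and 6.88 in every other library, and its log2 fold change was -0.13 with that library and 0.06 without it.

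**Figure D3:**
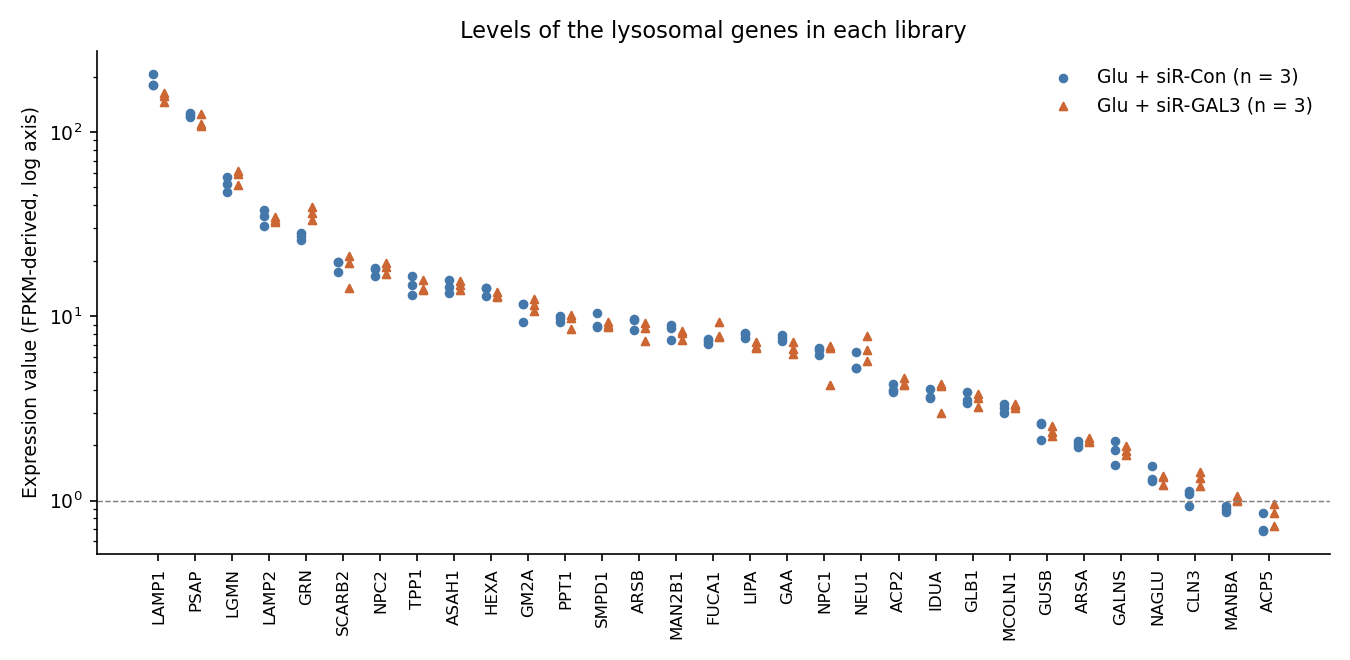
Expression value (vertical axis, log scale) of the 31 listed genes, ordered by mean along the horizontal axis, with a point for every siR-Con (circles) and siR-GAL3 (triangles) library and a dashed line at 1. The means span 0.797 for ACP5 to 172.4 for LAMP1, and for most genes the points of both groups overlap in height.

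Of the 8 genes for breakdown of sphingolipids and gangliosides, 4 were higher and 4 lower (ASAH1 also lower after median-ratio scaling), and all of their groups overlapped. PSAP (prosaposin), whose cleavage gives the saposins that present lipids to the enzymes, was the highest of them and ranked 36 of all genes. It was 121.4, 124.0 and 126.8 in siR-Con replicates 1 to 3 and 125.0, 107.2 and 110.5 in siR-GAL3 replicates 1 to 3. Replicate 1 of siR-GAL3 lay among the controls and the other siR-GAL3 libraries below them, and the log2 fold change was -0.12 (95% interval -0.31 to 0.07, limma unadjusted p = 0.174). It was -0.0084 after quantile normalization and -0.08 without siR-GAL3 replicate 2. NEU1, the lysosomal sialidase, had a log2 fold change of 0.22 (95% interval -0.07 to 0.51, limma unadjusted p = 0.114). Its highest library was siR-GAL3 replicate 2 at 7.84, and the fold change was 0.12 when it was omitted. The remaining 6 were HEXA and GM2A, a subunit of beta-hexosaminidase and the activator that it needs for ganglioside GM2, the beta-galactosidase GLB1, the arylsulfatase ARSA, the acid sphingomyelinase SMPD1 and the acid ceramidase ASAH1. Their log2 fold changes ran from -0.08 (HEXA) to 0.09 (GM2A).

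The 5 enzymes of glycosaminoglycan breakdown had log2 fold changes from -0.12 to 0.01. ARSB, a sulfatase that acts on dermatan and chondroitin sulfate, was the highest of them, at 8.43, 9.56 and 9.64 in siR-Con replicates 1 to 3 and 8.66, 7.34 and 9.19 in siR-GAL3 replicates 1 to 3. Its groups overlapped, with siR-GAL3 replicate 2 the lowest library (log2 fold change -0.12, limma unadjusted p = 0.247), and without that library its log2 fold change was -0.04. IDUA, the iduronidase of dermatan and heparan sulfate, was 3.00 in siR-GAL3 replicate 2 and between 3.60 and 4.26 elsewhere. Its log2 fold change was 0.0040 over all libraries and 0.13 without siR-GAL3 replicate 2, and it was below 0 after quantile normalization or median-ratio scaling. NAGLU, GALNS and GUSB had group means between 1.30 and 2.46, and none of them was separated between the groups.

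Among the enzymes that remove sugars from glycoproteins or degrade glycogen, GAA, the acid alpha-glucosidase lost in Pompe disease, was 7.33, 7.64 and 7.96 in siR-Con replicates 1 to 3 and 7.29, 6.22 and 6.63 in siR-GAL3 replicates 1 to 3. The groups did not overlap, but siR-GAL3 replicate 1 and siR-Con replicate 1, of the same library set, were nearly equal. The means of GAA were 7.64 ± 0.313 and 6.71 ± 0.541 (SD, n = 3 each), with a log2 fold change of -0.17 (95% interval -0.35 to 0.01, limma unadjusted p = 0.0663, adjusted p = 0.584). Its promoter, shown for the 120 bases before the start on the plus strand at chr10:105028235-105028354 (GRCr8, RefSeq), held the E-box core once.
GAA promoter: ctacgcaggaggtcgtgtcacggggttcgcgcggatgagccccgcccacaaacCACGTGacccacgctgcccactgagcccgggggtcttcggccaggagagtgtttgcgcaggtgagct

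FUCA1, the fucosidase, went the other way, at 7.10, 7.48 and 7.32 in the controls and 7.73, 9.35 and 7.78 after siR-GAL3. The groups were separate, with siR-GAL3 replicate 2 far above the other libraries, and the log2 fold change was 0.16 (95% interval -0.05 to 0.36, limma unadjusted p = 0.109). Without siR-GAL3 replicate 2 it was 0.08. MAN2B1, an alpha-mannosidase, was 7.48, 8.96 and 8.62 in the controls and 8.08, 7.43 and 8.35 after siR-GAL3, which overlapped (log2 fold change -0.06, limma unadjusted p = 0.503). The beta-mannosidase MANBA was below the limit for testing. It was 0.869, 0.935 and 0.899 in the controls and 0.996, 1.06 and 1.01 after siR-GAL3, so the siR-GAL3 libraries were all higher, and in the fit without a filter its log2 fold change was 0.09 (limma unadjusted p = 0.109).

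The last role gathers proteases, protein handling and phosphatases, and it held the gene with the smallest p of the list. GRN encodes progranulin, a secreted and lysosomal protein that is cut into granulins, and its loss causes frontotemporal dementia in people with one defective copy and a neuronal ceroid lipofuscinosis in those with none. GRN was 25.8, 28.4 and 27.4 in siR-Con replicates 1 to 3 and 39.1, 33.4 and 36.5 in siR-GAL3 replicates 1 to 3. All siR-GAL3 libraries were higher than all controls, and the lowest of them, replicate 2, was still above the highest control, replicate 2 of siR-Con. The means were 27.2 ± 1.30 and 36.3 ± 2.84 (SD, n = 3 each), 33.5% higher after siR-GAL3. Its log2 fold change was 0.40 (standard error 0.08, 95% interval 0.21 to 0.60, limma unadjusted p = 0.00176), which ranked 71 of the 8495 genes by p and gave an adjusted p of 0.211.

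GRN was higher in both library sets that held both groups, by 0.58 in the first and 0.38 in the second on the log2 scale, and omitting single libraries left its log2 fold change between 0.35 and 0.46. A block for the library set gave 0.46 and an adjusted p of 0.0350 in limma, a fit that called 1.25% of all genes at that level. Leaving out siR-GAL3 replicate 2 also gave 0.46, with an adjusted p of 0.0183 and 1.97% of all genes called. Since the block draws nothing from that library, both fits rest on the same 5 libraries. Over all alternatives the adjusted p of GRN ran from 0.0183 to 0.827, the highest without siR-Con replicate 3. Most microglial markers differed in the same direction as GRN. CX3CR1, P2RY12 and CSF1R overlapped between the groups, with log2 fold changes of 0.02, 0.02 and 0.08, and LAPTM5 was lower (-0.05). Without siR-GAL3 replicate 2 these genes had 0.23, 0.08, 0.28 and -0.05. Of the 13 microglial markers tested, 12 were higher and 7 of these had an unadjusted p under 0.05 (4.41% of all genes). Groups were separate in 7, all higher (10.3% of all genes). The median log2 fold change of the list was 0.27. The sum over the 14 listed was 130.3 to 155.5 in the controls and 170.2 to 189.4 after siR-GAL3. None of these markers was at 0, CD68 and another of them also stood in a lysosomal list, and TMEM119 had a mean under 1. The part of microglial RNA in the GRN difference was not tested. Of 6 neuronal markers tested, 4 were higher, 3 of them without overlap (10.3% of all genes). STMN2 alone of the 6 had an unadjusted p under 0.05 (4.41% of all genes). Of 6 oligodendrocyte markers tested, 4 were higher, and 0 had an unadjusted p under 0.05. The sums of both lists overlapped between the groups, and their part was not tested either.

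GRN is shown beside the other promoters because the same letters searched on both strands gave no match before its start. The 250 bases lie on the plus strand at chr10:87887584-87887833 (GRCr8, RefSeq).
GRN promoter: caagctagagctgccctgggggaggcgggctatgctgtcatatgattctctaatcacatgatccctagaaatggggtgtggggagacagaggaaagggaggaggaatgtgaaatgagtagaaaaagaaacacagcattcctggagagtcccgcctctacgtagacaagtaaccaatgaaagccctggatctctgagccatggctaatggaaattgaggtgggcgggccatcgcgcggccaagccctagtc

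LGMN (legumain), an asparaginyl endopeptidase that also matures other lysosomal proteases, was the highest gene of this role at 47.6, 57.05 and 52.0 in siR-Con replicates 1 to 3 and 61.2, 51.5 and 59.1 in siR-GAL3 replicates 1 to 3. Its groups overlapped through siR-GAL3 replicate 2, and the log2 fold change was 0.13 (95% interval -0.11 to 0.37, limma unadjusted p = 0.232). Without that library it was 0.20 (limma unadjusted p = 0.0328). The tripeptidyl peptidase TPP1 and the palmitoyl thioesterase PPT1, both lost in childhood ceroid lipofuscinoses, had log2 fold changes of -0.03 and -0.04, and the acid phosphatase ACP2 one of 0.09. ACP5, the tartrate-resistant phosphatase, was too low to be tested, at 0.686, 0.696 and 0.854 in the controls and 0.858, 0.962 and 0.727 after siR-GAL3, and its groups overlapped.

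The 31 values added up to 610.3, 617.3 and 617.1 in siR-Con replicates 1 to 3 and to 609.9, 548.7 and 587.8 in siR-GAL3 replicates 1 to 3. Without LAMP1 the sums were 402.8, 436.4 and 436.3 in the controls and 452.9, 403.1 and 425.0 after siR-GAL3. The groups were narrowly separate in the first sum and overlapped once LAMP1 was left out. Across libraries, siR-GAL3 replicate 2 was the lowest or highest in 16 of the 31 genes, lowest in 8 and highest in 8, and siR-Con replicate 1 was also at an extreme in 16, lowest in 13 of them. Among all genes tested these libraries were at an extreme in 76.7% and 21.5%, against 51.6% of the lysosomal genes for each. Of the 29 tested genes, 15 had the same sign in both library sets that held both groups, 11 higher and 4 lower after siR-GAL3. The share over all genes was not computed. The first set had siR-Con replicate 1, so often the lowest library, as its only control, and the main fit had 13 genes higher and 16 lower. The count is therefore not read as a direction.

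Promoters of 25 of the 31 listed genes were matched by symbol in RefSeq (GRCr8, 250 bases before to 50 after the start), and HEXA, ARSB, PSAP, ASAH1, ARSA and PPT1 had no entry. The core CACGTG, searched on both strands, occurred in 6 of the 25 (24%), against 6.42% of all 33469 promoters in the table. Genes of the list were counted once per symbol, but the table entry by entry and without a limit to expressed genes, so these percentages are not in the same unit. The longer GTCACGTG, which contains the core, occurred in the same 6, against 1.85% of all promoters, and the CLEAR palindrome, which contains both, in none, against 0.233%. LAMP1 held 5 copies of the core, CLN3 and MCOLN1 2 each, and GAA, GLB1 and IDUA 1 each. Their log2 fold changes were -0.29 for LAMP1, -0.17 for GAA, -0.02 for GLB1, 0.0040 for IDUA, 0.04 for MCOLN1 and 0.18 for CLN3, so genes with the motif lay on both sides of 0. A match describes letters in this window and not binding.

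**Figure D4:**
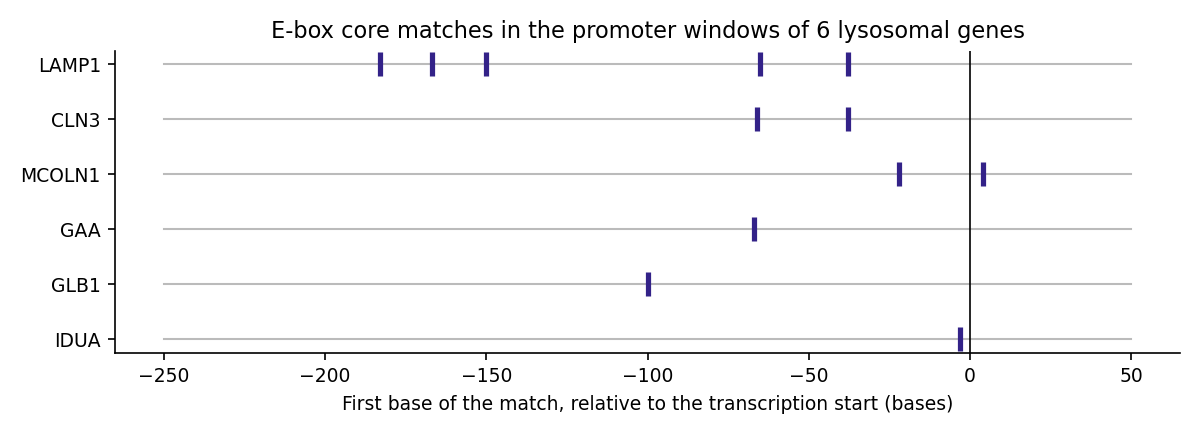
Position of each CACGTG match relative to the start of the gene (horizontal axis, bases) in the 6 promoters that held one, of 25 searched. LAMP1 carries 5 matches, CLN3 and MCOLN1 carry 2, and the others carry 1.

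Other genes of the lysosome were counted from fixed lists. Over 81 tested genes outside the list the median log2 fold change was 0.0029, with 8 higher and 1 lower at an unadjusted p under 0.05 (4.41% and 4.25% of all genes), and 0 genes had an adjusted p under 0.05. The cathepsins, the main lysosomal proteases, had 6 of 10 higher and 4 lower, with 4 of the higher at an unadjusted p under 0.05, CTSZ (1.02), CTSC (0.35) and CTSS (0.30) leading by p. CTSZ alone of these lists passed the study's criteria, though its log2 fold change was 0.995 after median-ratio scaling, and its adjusted p in limma ran from 0.00692 with the library set as a block to 0.523 without siR-Con replicate 2. Of 17 tested subunits of the V-ATPase, the proton pump that acidifies the lysosome, 10 were higher and 7 lower, and ATP6V1C1 alone, with a log2 fold change of 0.22, had an unadjusted p under 0.05. Of 19 other hydrolases, 12 were higher and 7 lower. RNASET2, the lysosomal ribonuclease, was 13.2 ± 0.217 in the controls and 17.8 ± 1.18 after siR-GAL3 (SD, n = 3 each), and its log2 fold change was 0.40 (limma adjusted p = 0.149). Among 22 other membrane proteins and transporters, 8 were higher and 14 lower. CD68, a glycoprotein of the LAMP family that also stands in the microglial list, was 9.15 ± 0.412 and 13.8 ± 0.671 (SD, n = 3 each), and its log2 fold change was 0.54 (limma adjusted p = 0.101, over the alternatives from 0.0071 without siR-GAL3 replicate 2 to 0.523). CLN6 was the other gene of that list with an unadjusted p under 0.05, and its log2 fold change was 0.19.

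Of 13 tested genes for sorting to the lysosome and of the TFEB family, 5 were higher and 8 lower. SORT1, or sortilin, a sorting receptor that binds progranulin and prosaposin, was the only one with an unadjusted p under 0.05. It was 4.92, 5.68 and 6.09 in siR-Con replicates 1 to 3 and 3.99, 4.69 and 3.83 in siR-GAL3 replicates 1 to 3. The siR-GAL3 libraries were all lower, opposite to GRN, with means of 5.56 ± 0.592 and 4.17 ± 0.456 (SD, n = 3 each) and a log2 fold change of -0.34 (standard error 0.10, 95% interval -0.58 to -0.11, limma unadjusted p = 0.0102, adjusted p = 0.383). The adjusted p of SORT1 ran from 0.0433 to 0.874 over the alternatives, the lowest without siR-GAL3 replicate 2.

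**Figure D5:**
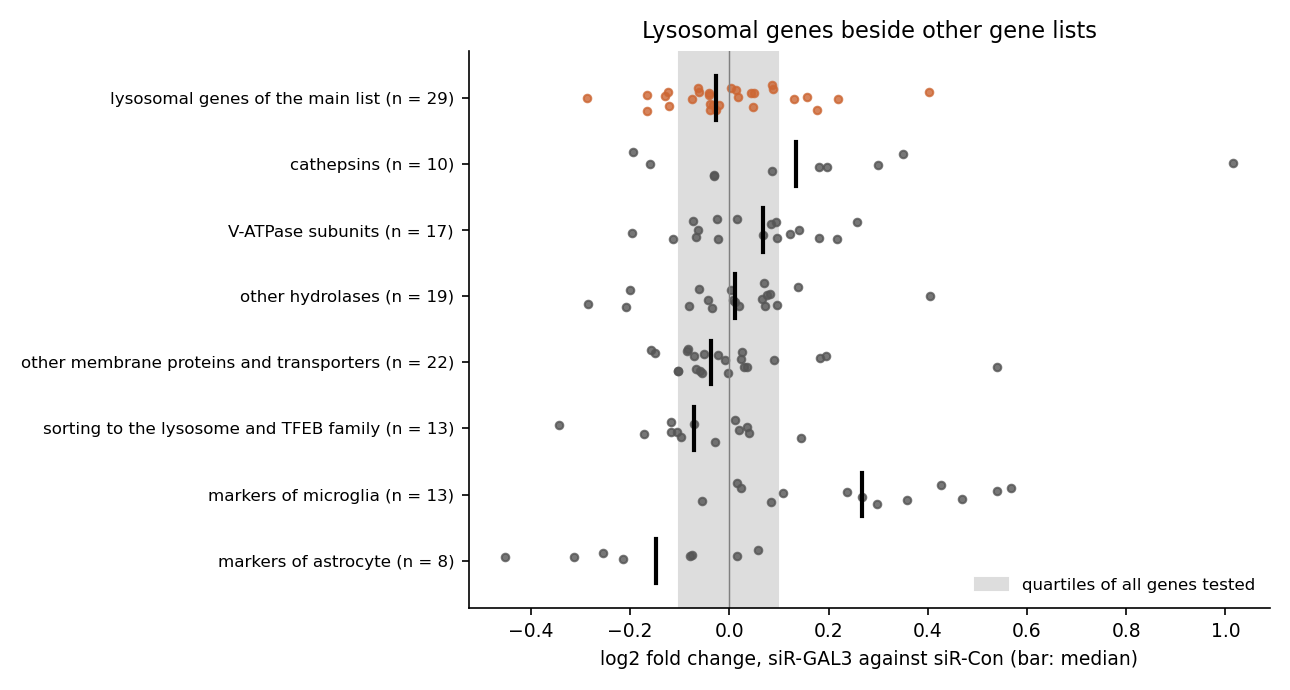
Log2 fold change (horizontal axis, log2(value + 1) scale) of the tested genes in the lysosomal lists and in the microglial and astrocyte marker lists. Each gene is a point, bars mark the median of each list, and a grey band gives the quartiles of all genes tested. The 29 genes of the main list centre on -0.03, the microglial markers on 0.27 and the astrocyte markers on -0.15.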

How the data were processed

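The 6 libraries were grouped by their titles, 3 per group. Per the paper, alignment was by STAR and counting by HTSeq, FPKM was estimated, and the authors then corrected for batches, standardized and adjusted for differences inside each group, with tools that are not given in the sources used here. The build of their alignment is not given in the sources used here either. The supplement describes poly-A selection and the labels ribosomal RNA depletion, which bears on the RNA species captured. The deposited values are treated as a score on a linear scale: 3.86% of the 105888 values were below 0, column totals lay between 64313 and 64714, and 5 libraries shared the highest value, so depth and counting error are unknown.

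Values below 0 were set to 0, which touched 24 genes tested and no lysosomal gene of the main list, and log2(value + 1) was fitted for the 8495 genes whose mean reached 1, using limma 3.58.1 (R 4.3.3) and its intensity trend. Adjusted p-values are Benjamini-Hochberg values over these genes. The script was tested on simulated data. Exact permutation tests of 3 against 3 cannot give a two-sided p under 0.1. Promoters were searched in Python 3.11.15. Library sets were joined where at least 1000 values other than 0 were exactly equal. The study's criteria, an absolute log2 fold change over 1 and an unadjusted p under 0.05, are stated in its methods for public injury datasets. For sequenced libraries the supplement names DESeq with adjusted p-values, which needs counts and was not run here.

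The members and lists were chosen with earlier results of these data known. Values in every library were given for genes with an unadjusted p under 0.05, no overlap or a mean too low to be tested, and for the highest gene of each role. LAMP2 was added after its values were seen. From each other lysosomal list, at most the 3 genes with the smallest p under 0.05 were named. Alternatives were each library left out, replicate and library set blocks, a pseudocount of 0.1, a minimum mean of 10 or none, median-ratio scaling or quantile normalization, no trend, no moderation, no log transformation, and an adjusted p under 0.1.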

Additional observations from a re-analysis of the deposited data

How the results depend on the processing

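The median of the lysosomal genes stayed within the spread between replicates under every alternative on the log2 scale, between -0.055 and 0.015 (not computed without the log transformation). A mean of at least 10 left 1120 genes to test, 11 of them lysosomal genes of the list. There were then 5 genes past the study's criteria instead of 27. An unadjusted p under 0.05 was left for 2 lysosomal genes instead of 4, against 121 of all 1120 genes. Groups without overlap were left for 2 instead of 6, against 286 of all 1120 genes. Fewer genes were tested, and LGALS3, which was still tested, moved to an unadjusted p of 0.0537 in limma. No moderation of the variances gave 17 genes past the criteria, and omitting the log transformation, where the threshold is 1 unit, gave 367, 2 of them lysosomal genes. At an adjusted p under 0.1 there were 7 genes instead of 0. LGALS3 kept its direction but not an unadjusted p under 0.05 with a pseudocount of 0.1 (-4.03), without a filter, with a mean of at least 10 and without moderation (-2.91 each). With each library left out in turn, LGALS3 ranged from -3.88 to -1.35, and its unadjusted p in limma was 0.109, 0.084 and 0.0936 without siR-Con replicates 1, 2 and 3. The lysosomal genes with an unadjusted p under 0.05 then ranged from 2 to 6 (344 to 1388 of all 8495 genes) and those without overlap from 7 to 11 (2194 to 3235 of all genes).

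Deviations of libraries with the same replicate number correlated at -0.17, -0.07 and 0.04. In values that the authors had already corrected within groups, this cannot show whether those libraries were paired. Exactly equal values placed siR-Con replicate 1 and siR-GAL3 replicate 1 in the same library set, and likewise replicate 3 of each group. With the replicate number as a block, 2 lysosomal genes, GRN and LAMP1, had an unadjusted p under 0.05, against 543 of all 8495 genes. Signs near 0 turned in several fits, and the cause was not tested. With the library set as a block, SCARB2 was 0.11, NPC1 0.063, MAN2B1 0.0049 and TPP1 0.015. Median-ratio scaling gave -0.0032 for ASAH1, -0.012 for IDUA and -0.0012 for GALNS, and quantile normalization -0.0071 for IDUA. With each library left out in turn, log2 fold changes on both sides of 0 were found for GM2A (-0.012 to 0.14), SMPD1 (-0.083 to 0.031), IDUA (-0.066 to 0.13), NAGLU (-0.071 to 0.010), GALNS (-0.063 to 0.080), LAMP2 (-0.11 to 0.021), GLB1 (-0.060 to 0.028), ASAH1 (-0.035 to 0.074), GUSB (-0.10 to 0.0070), TPP1 (-0.11 to 0.050), SCARB2 (-0.17 to 0.098), NPC1 (-0.24 to 0.063) and PPT1 (-0.082 to 0.025). GRN stayed higher and LAMP1 lower in every alternative run, and so did CLN3 and LIPA, higher and lower, in those that tested them (a mean of at least 10 left both out). CLN3 and LIPA lost an unadjusted p under 0.05 in limma without siR-Con replicate 1 (0.0655 and 0.0553), siR-Con replicate 2 (0.136 and 0.133) or siR-GAL3 replicate 3 (0.0824 and 0.114) and with the replicate block (0.0891 and 0.120), LIPA also without siR-Con replicate 3 (0.112) and CLN3 without log transformation (0.0887). GAA, NEU1, IDUA and LGMN gained one in at least 1 alternative.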
